A study of Mus musculus with 4 samples.

Results

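Checkpoint receptor-positive CD8 T cells are killer T cells that carry transcripts of the inhibitory receptors PD-1 (Pdcd1), LAG-3 (Lag3) or TIM-3 (Havcr2). They were chosen here by counts of unique molecular identifiers (UMIs, 1 per captured transcript) in each droplet barcode. A cell had to hold at least 1 UMI of Cd8a or Cd8b1, at least 1 of the CD3 genes Cd3d, Cd3e or Cd3g, and at least 2 UMIs summed over Pdcd1, Lag3 and Havcr2. It could hold no Cd4 or Foxp3, at most 1 UMI of the C1q genes, at most 4 of S100a8 and S100a9, at most 1 of Krt8 and Krt18, and at most 1 of the division genes Mki67 and Top2a. This left 197 cells of 20607 that passed the cell filters: 145 of 10617 in the control matrix and 52 of 9990 in the IL-27 matrix.

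The cells come from subcutaneous tumours of OV2944-HM1, a mouse ovarian cancer line, in B6C3F1 mice aged 6 to 8 weeks. Control tumours were injected with vehicle. The other group was given the recombinant mouse cytokine IL-27 (interleukin 27) at 100 ng a mouse, from the day of implantation and every other day after it. On day 14 the tumours of both groups were digested and cells were enriched with beads against CD45, which leukocytes carry. The labels name 2 entries per group, but each group is 1 matrix whose cells carry no tag of entry or animal, so n = 1 per group. There is no test and no replicate check of any difference, and every interval below is a 95% interval that covers counting error only. The number of tumours behind each matrix is not given in the sources used here.

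CD8 T cells kill infected or malignant cells through perforin and granzymes after their receptor meets a peptide on MHC class I. When antigen persists, as in tumours, they keep inhibitory receptors on the surface and pass into a state called exhaustion, which the factor TOX helps to set up. A smaller pool marked by TCF-1 (Tcf7) keeps the ability to renew and feeds the more differentiated cells, and IL-27 is a cytokine that signals to T cells through IL27RA and gp130 to STAT factors. Each T cell clone has 1 rearranged receptor beta chain, so the V segment it uses is a mark that daughter cells share.

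The germline V segments below are the 3 beta segments that led in most of these cells and the 2 alpha segments of each matrix's most frequent pair. Their shares differed between the 2 matrices. Each line gives the 3′ end of the segment, 5′ to 3′ on the coding strand, from the GENCODE M21 transcripts (build GRCm38). Capitals mark the cysteine codon at which the antigen-contacting loop CDR3 begins.
Trbv16: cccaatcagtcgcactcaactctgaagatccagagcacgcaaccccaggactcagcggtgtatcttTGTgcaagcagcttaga
Trbv19: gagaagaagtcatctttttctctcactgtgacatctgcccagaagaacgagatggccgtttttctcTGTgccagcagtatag
Trbv4: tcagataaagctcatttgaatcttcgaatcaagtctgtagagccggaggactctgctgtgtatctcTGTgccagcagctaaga
Trav14-1: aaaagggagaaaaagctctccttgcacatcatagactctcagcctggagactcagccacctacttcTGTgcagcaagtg
Trav8d-1: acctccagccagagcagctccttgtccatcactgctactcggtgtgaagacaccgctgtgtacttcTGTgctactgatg
Trbv16 lies at chr6:41151740-41152230, Trbv19 at chr6:41178375-41179048 and Trbv4 at chr6:41059394-41059886, all on the plus strand. Trav14-1 lies at chr14:53554022-53554558 and Trav8d-1 at chr14:52778447-52778995, also on the plus strand. Trbv16 and Trbv4 were identical at 57.8% of bases. The nearest other beta segment to Trbv16 was Trbv15, with 68.6% identity. Trav14-1 has closer relatives, with 91.6% identity to Trav14d-1 and Trav14n-1, and its assignment is less certain.

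The control cells were dominated by Trbv16 and the IL-27 cells by Trbv4. Of 143 control cells with a beta V segment UMI, 60 led with Trbv16 (42.0%, Clopper-Pearson interval 33.8% to 50.5%), 35 with Trbv19 and 22 with Trbv4. Of 48 IL-27 cells, 27 led with Trbv4 (56.3%, 41.2% to 70.5%), 4 with Trbv16 and 2 with Trbv19. Of the 28 checkpoint-low CD8 T cells of the control matrix with a beta segment (all the same gates, but at most 1 receptor UMI), 1 led with Trbv16, and no segment led in more than 4. The cycling CD8 T cells, which the gate on Mki67 and Top2a sets aside, showed the segments of the receptor-positive cells of their own matrix, with Trbv16 in 24 of 70 control cells and Trbv4 in 14 of 19 IL-27 cells.

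**Figure D1:**
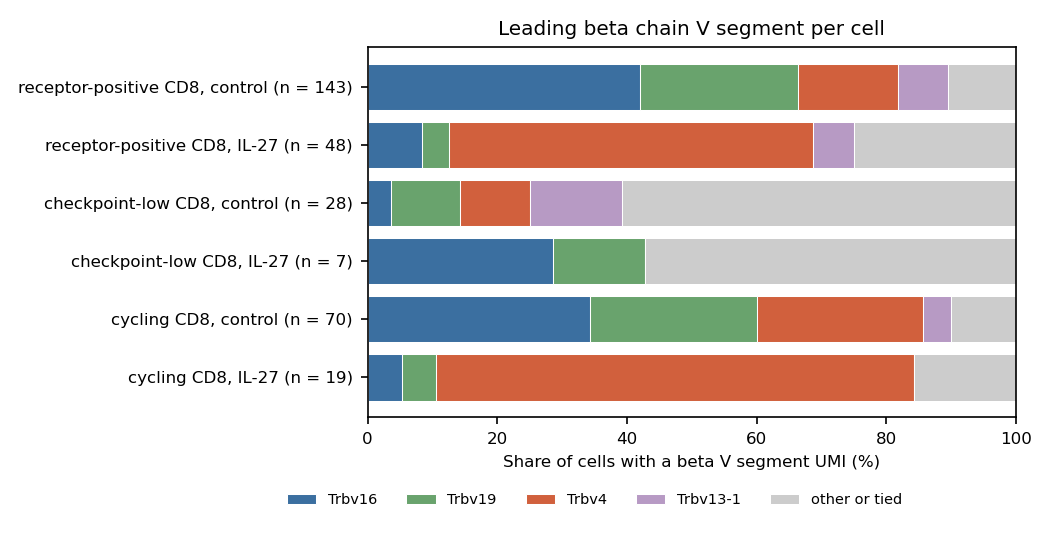
Share of cells (%, x axis) by leading beta V segment, for receptor-positive, checkpoint-low and cycling CD8 T cells of each matrix (n is the number of cells with a beta V segment UMI). Trbv16 takes 42.0% of the receptor-positive control cells and Trbv4 takes 56.3% of the receptor-positive IL-27 cells.

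Pairs of alpha and beta segments set the 2 matrices further apart. Among 113 control cells with a leading segment of both chains, 51 paired Trbv16 with Trav14-1 (45.1%, 35.8% to 54.8%). The same pair was found in 4 of 32 IL-27 cells, and none of these cells' barcodes occurred in both matrices. Trbv4 with Trav8d-1 made up 15 of the 32 IL-27 cells (46.9%, 29.1% to 65.3%) and 0 of 113 control cells, whose interval reached 3.21%. No control cell with a leading segment of both chains thus held the pair that led in the IL-27 matrix, although 22 control cells led with Trbv4. Cycling cells repeated this, with Trbv16 and Trav14-1 in 23 of 62 cells of the control matrix and Trbv4 with Trav8d-1 in 7 of 13 of the IL-27 matrix.

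The beta constant gene gave a further mark. A rearranged beta chain is spliced to Trbc1 or Trbc2, 2 neighbouring genes of nearly the same sequence. All 60 control cells with Trbv16 lacked Trbc1, with 0 UMIs of it against 756 of Trbc2. Trbc1 was seen in 20 of 22 control cells with Trbv4 and in 2 of the 4 IL-27 cells that paired Trbv16 with Trav14-1. All 53 control cells with Trbc1 also held Trbc2 UMIs. Of the stretches of 50 bases in the first 400 bases of Trbc1, 80.6% occur in Trbc2. Whether reads were shared between the 2 genes was not tested. CDR3 sequences were not used here, and whether equal segments mark 1 clone was not tested.

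Depth and identity were as follows. The receptor-positive cells held 1172938 UMIs in the control and 388340 in the IL-27 matrix, with medians of 7160 and 6733 per cell, while the checkpoint-low cells were shallower, at 4630 and 2870.5. Of 133 barcodes found in both matrices, 0 were receptor-positive control cells and 1 was a receptor-positive IL-27 cell. All 11 T cell markers were seen in both matrices. Trdc (gamma-delta T cells), Cd79a (B cells) and the fibroblast and erythroid lists were at 0. Of 9 NK cell markers 3 were at 0 (Ncr1, Klra8 and Klra4), while Klre1 was seen in 68 of 145 control and 26 of 52 IL-27 cells and the whole list stood at 437 and 296 CPM (counts per 1000000 of the summed UMIs), from 0 to 5864 per control cell and 0 to 1842 per IL-27 cell. Myeloid transcripts were present: 16 of the 145 control and 1 of the 52 IL-27 cells held at least 3 UMIs over 8 macrophage and class II genes, and 17 and 5 ranked in the top 8% of their matrix by doublet score. Over the 12 macrophage and monocyte markers the sum ranged from 0 to 10030 CPM per control cell and from 0 to 3064 per IL-27 cell. The 12 dendritic cell markers stood at 1000 and 1017 CPM, and reached 19042 in 1 control and 11568 in 1 IL-27 cell. Of their UMIs, 480 of 1173 and 255 of 395 were of Ccr7, and Cd74 was seen in 48 and 12 cells. The regulatory T cell list stood at 843 and 989 CPM, the CD4 list at 622 and 783 and the innate lymphoid list at 261 and 621. Of the regulatory T cell UMIs, 473 of 989 and 182 of 384 were of Ikzf2, and 432 and 133 of Ctla4. Of the CD4 UMIs, 405 of 729 and 88 of 304 were of Tnfrsf4, and 323 and 216 of Icos. Of the innate lymphoid UMIs, 242 of 306 and 194 of 241 were of Rora. Foxp3 and Cd4 were at 0 by the gate.

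Receptor-positive CD8 T cells made up a smaller share of the IL-27 matrix. They were 1.37% of the kept control cells (1.15% to 1.61%) and 0.521% of the kept IL-27 cells (0.389% to 0.682%), a ratio of 0.381 (0.272 to 0.527). Within the noncycling CD8 T cells they were 145 of 178 in the control matrix (81.5%, 75.0% to 86.9%) and 52 of 70 in the IL-27 matrix (74.3%, 62.4% to 84.0%). The ratio was 0.912 (0.651 to 1.26). Its interval held 1, but it is that of 2 rates and is too wide for shares this high. When each cell was thinned to 1000 UMIs before the gates were read, these ratios were 0.553 and 1.27. Unthinned, other CD8 T cells also made up a smaller share of the kept IL-27 cells. The ratio was 0.330 (0.197 to 0.534) for cycling and 0.580 (0.307 to 1.06) for checkpoint-low CD8 T cells.

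The 3 receptor genes, which chose the cells, are given as a description. Pdcd1 (ENSMUSG00000026285, chr1:94038305-94052553) was seen in 131 of 145 control and 51 of 52 IL-27 cells, with 0, 4 and 23 UMIs as the lowest, median and highest control cell and 0, 3.5 and 20 in IL-27. Lag3 (ENSMUSG00000030124, chr6:124904361-124911705) was seen in 121 and 45 cells, with medians of 3 UMIs in both. Havcr2 (ENSMUSG00000020399, chr11:46454935-46481255) was seen in 82 and 26 cells. All 3 were seen together in 64 cells of the 145 from control tumours (44.1%) and 25 of the 52 from IL-27 tumours (48.1%), and Havcr2 was the only one in no cell of either matrix. Pdcd1 alone carried 13 control and 6 IL-27 cells through the gate, and Lag3 alone 7 and 1.

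Near the threshold there were few cells. At a receptor sum of 2, just inside, there were 18 control and 4 IL-27 cells, and at a sum of 1, just outside, 11 and 6. The latter were 11 of the 33 checkpoint-low control cells and 6 of the 18 checkpoint-low IL-27 cells. The cells just inside had 766 CPM of Gzmb (granzyme B) in the control matrix, from 72 UMIs, and those just outside 1209 CPM from 51 UMIs. In the IL-27 matrix the order was the opposite, with 1100 CPM just inside and 81.6 just outside. Prf1 (perforin) was at 383 CPM just inside and 735 just outside in control. It was at 138 and 40.8 CPM in IL-27, from 3 and 1 UMIs. Ikzf2, which encodes the factor Helios, was at 287 CPM just inside and 94.8 just outside in control, and at 45.8 and 163 CPM in IL-27, from 1 and 4 UMIs.

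The levels of the gate genes follow, and nothing is read from them, since they chose the cells. Pdcd1 was at 655 CPM (609 to 703) in control and 682 (603 to 770) in IL-27, Lag3 at 514 and 572, and Havcr2 at 174 and 198. Cd8a was at 1044 and 971 CPM, while its partner chain Cd8b1 was at 640 and 427. Of the CD3 chains, Cd3d was at 1202 and 1130 CPM, Cd3e at 1645 and 1257 and Cd3g at 2163 and 1396.

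The receptor-positive cells were next set beside the checkpoint-low CD8 T cells of their own matrix, as a description, since the receptors that split them also pick cells by depth. A gene was counted where its CPM was at least 1.5-fold apart in the same direction in both matrices. Of 5399 genes with at least 30 UMIs, 459 (8.50%) were higher and 367 (6.80%) lower in the receptor-positive cells. Among the other checkpoint receptors, Entpd1 (the ectonucleotidase CD39) and Klrd1 (CD94, a partner of NKG2A) were higher in both. Of 17 cytotoxic granule genes 11 were higher and 0 lower, and of 16 exhaustion regulators 7 were higher (Tox, Nr4a2, Tbx21, Id2, Ikzf2, Bhlhe40 and Hif1a) and 0 lower. Tox was at 142 CPM in receptor-positive and 48.1 in checkpoint-low control cells, and at 92.7 and 35.4 in IL-27.

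Leading genes of the receptor-positive side, beyond Lag3 and Pdcd1 of the gate, were Irf8, Serpina3g, Csf1, Epas1, Snx9, Itgav, Plscr1 and Myo10. Irf8, an interferon regulatory factor, was at 581 CPM against 41.2 in control and 520 against 70.8 in IL-27. Csf1, the growth factor of macrophages, was at 263 against 55.0 and at 342 against 35.4. Epas1, a hypoxia-inducible factor, was at 295 against 41.2 and at 252 against 53.1. Itgav, the integrin alpha V chain, was at 414 against 89.4 and at 371 against 53.1. The checkpoint-low levels rest on few UMIs, so the size of these differences is uncertain. In control and IL-27 there were 6 and 4 of Irf8, 8 and 2 of Csf1, 6 and 3 of Epas1 and 13 and 3 of Itgav. Serpina3g and Snx9 each had 3 and 1, Plscr1 2 and 1 and Myo10 4 and 2.

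Leading genes of the checkpoint-low side were Klf3, S1pr1, Actn2, Cpd, Klf2, Elmsan1, Ssh2, Cd69, Lef1 and Bach2, among them several known from resting and recirculating T cells. Cd69 is grouped here with the immediate early and stress genes. It was at 31.5 CPM in receptor-positive and 131 in checkpoint-low control cells, and at 30.9 and 177 in IL-27. S1pr1, the receptor that draws T cells out of tissue, was at 16.2 CPM in receptor-positive and 151 in checkpoint-low control cells, and at 12.9 and 248 in IL-27. Klf2, which drives S1pr1, was at 56.3 and 282 in control and at 30.9 and 266 in IL-27. Of 10 stem-like and naive genes, 7 were lower in the receptor-positive cells of both matrices and 1, Ccr7, was higher, against 6.80% and 8.50% of all genes. The checkpoint-low sums are small, with 22 UMIs of S1pr1 in control and 14 in IL-27.

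**Figure D2:**
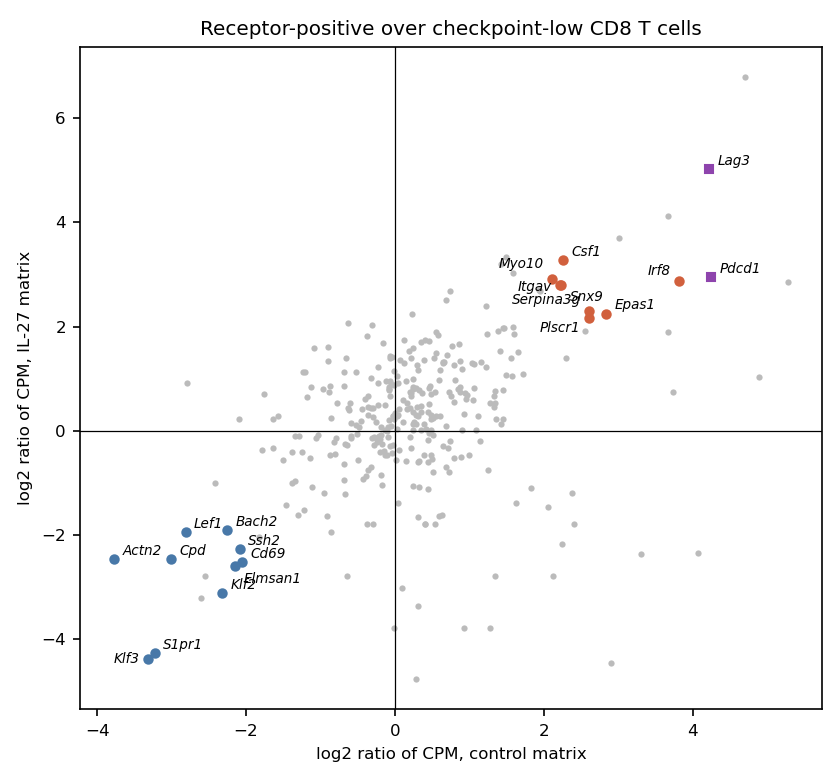
log2 ratio of CPM, receptor-positive over checkpoint-low CD8 T cells, in the control matrix (x axis) and the IL-27 matrix (y axis). The leading genes of each side are coloured, with Pdcd1 and Lag3 of the gate as squares. Grey points are other listed genes, Havcr2 included, with at least 30 UMIs in the receptor-positive cells, with a count of 0 set to 3 counts. Csf1 and Irf8 lie high and S1pr1 and Klf2 low in both matrices.

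The comparison of IL-27 with control within the receptor-positive cells asked which genes differ between the treatments in cells that passed the same gate. Of 5926 genes with at least 30 UMIs over both matrices, 652 (11.0%) were at least 1.5-fold higher and 906 (15.3%) at least 1.5-fold lower in IL-27, and the median log2 ratio of all genes was -0.04. These shares are the background for the counts of each gene list. Ratios also followed the length of the transcript. The median was -0.19 in the 20% of genes with the shortest transcripts and 0.20 in the 20% with the longest. List medians were therefore also read after taking off each gene the median of its own length class, 1 of 5 of equal size.

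**Figure D3:**
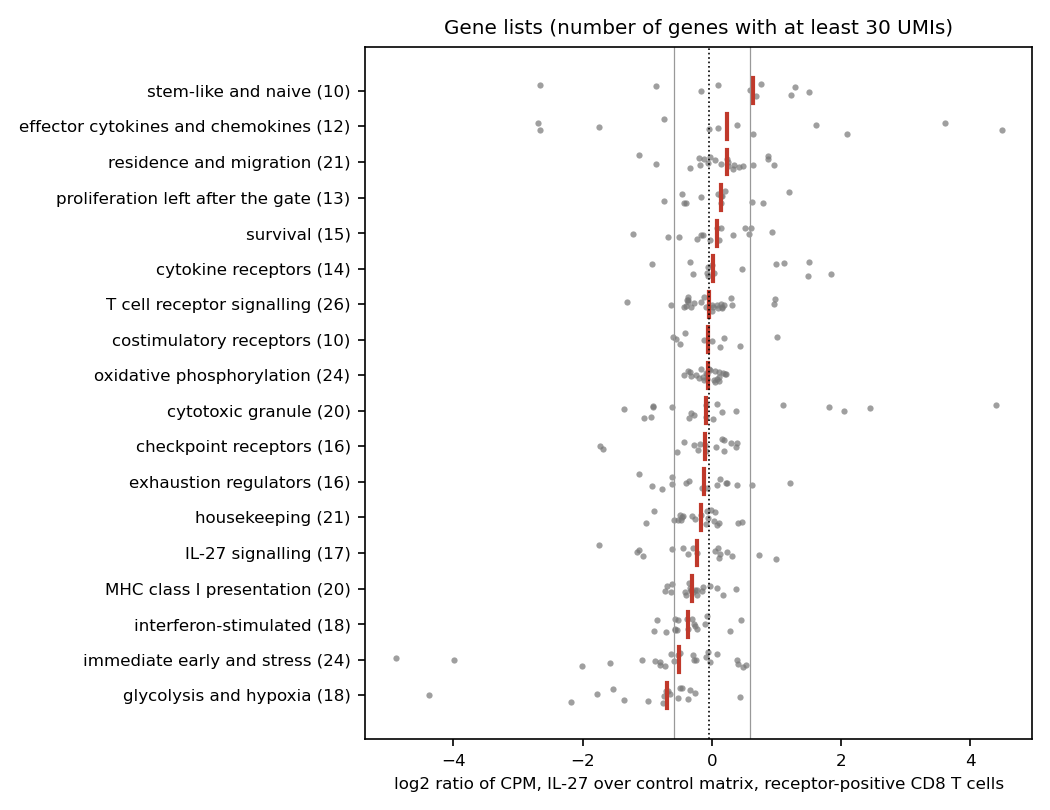
log2 ratio of CPM, IL-27 over control, for each gene with at least 30 UMIs (grey points) in 18 lists, with the list median as a red bar. The dotted line is the median of all genes (-0.04) and the thin lines mark 1.5-fold. Stem-like and naive genes have the highest list median (0.64) and glycolysis and hypoxia genes the lowest (-0.69).

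Of 16 checkpoint receptor genes 0 were higher and 2 lower, with a median of -0.10, but 3 of the 16 chose the cells. Of the other 13, 2 were lower (15.4%, against 15.3% of all genes) and the median was -0.19. Cd244a, the receptor 2B4, was at 58.0 CPM in control and 18.0 in IL-27 (ratio 0.311, 0.120 to 0.676), and Cd200r1 was at 34.1 and 10.3. Tigit was at 396 and 273, a ratio of 0.689 (0.552 to 0.852), and Ctla4 at 368 and 342. Klrc1, which encodes the inhibitory receptor NKG2A, was at 539 and 474 and its partner Klrd1 at 580 and 662.

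Exhaustion regulators pointed both ways. Of 16 genes 5 were lower and 2 higher, against 15.3% and 11.0% of all genes, and the list median was -0.12. Tox was seen in 88 of 145 control and 19 of 52 IL-27 cells and was at 142 and 92.7 CPM (ratio 0.651, 0.441 to 0.938). Tbx21, which encodes the effector factor T-bet, was at 101 and 46.4 (0.457, 0.262 to 0.754), and its relative Eomes at 79.3 and 46.4 (0.585, 0.332 to 0.975), although with cycling cells kept the log2 ratio of Eomes was 0.59. Batf was at 78.4 and 41.2, and Nfatc1 at 91.2 and 59.2 with an interval that reached 1.03. On the higher side stood Nr4a3, a target of T cell receptor signals, at 83.6 and 193 (2.31, 1.69 to 3.15), with 24 of 75 IL-27 UMIs in 1 cell, and Hif1a, a hypoxia-inducible factor, at 597 and 919 (1.54, 1.35 to 1.75). Id2 and Ikzf2 had ratios of 1.06 and 1.16.

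Stem-like and naive genes were the list with the highest median. Of 10 genes 6 were higher and 2 lower, against 11.0% and 15.3% of all genes, and the median was 0.64, or 0.63 after taking off that of the length class. Il7r, the receptor for the survival cytokine IL-7, had lowest, median and highest counts per cell of 0, 0 and 12 in control and 0, 1.5 and 13 in IL-27, and stood at 133 CPM (113 to 156) against 379 (320 to 445), the ratio being 2.85 (2.26 to 3.59). Satb1, a chromatin organiser of T cells, had medians of 1 and 2 UMIs and stood at 124 and 291 CPM (2.34, 1.81 to 3.01). The cells with Il7r and Satb1 were thus more frequent in IL-27, at 32 of 52 and 43 of 52, than in control, at 59 and 73 of 145.

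Other members of that list had fewer UMIs. Lef1, a partner of TCF-1, was at 26.4 and 64.4 CPM (2.44, 1.38 to 4.26), and Ccr7, the lymph node homing receptor, at 409 and 657 (1.60, 1.37 to 1.87). Tcf7 was seen in 17 of 145 control and 8 of 52 IL-27 cells, at 35.0 and 59.2 CPM, and its interval held 1 (1.69, 0.971 to 2.89), as did that of Bach2 (1.51, 0.661 to 3.25). On the lower side were Xcl1 and Klf2, the latter with an interval that held 1 (0.549, 0.270 to 1.02). Of the 305 control UMIs of Xcl1, 199 came from 1 cell.

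The overlap of Havcr2 with Tcf7 and Il7r is a description, since Havcr2 was 1 of the genes that chose the cells, and the difference between them was not tested. Havcr2 was seen in 1 of 17 control cells with Tcf7 and in 81 of 128 without it, and in 0 of 8 and 26 of 44 IL-27 cells. The interval of the 0 of 8 reached 36.9%. Havcr2 was found in 34 of 59 control cells with Il7r and 48 of 86 without, and in 18 of 32 and 8 of 20 IL-27 cells. Ccr7 was seen in 35 control and 20 IL-27 cells. It is also a marker of mature dendritic cells, and without the cells with at least 3 myeloid and class II UMIs it was found in 30 of 129 control and 19 of 51 IL-27 cells.

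The same stem-like list had a median of 0.57 in checkpoint-low and 0.51 in cycling CD8 T cells. In neutrophils it was 0.36, with 3 higher and 1 lower of 9 genes, where the median of all genes was 0.02. It was -0.18 in regulatory T cells, -0.33 in other CD4 T cells and -0.17 in NK cells. Whether these populations differ was not tested.

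Cytotoxic granule genes were lower for perforin and granzymes B and K and pulled the other way by a few cells for other granzymes. Prf1 had median counts of 3 and 1 UMIs per cell and stood at 806 CPM (755 to 859) against 430 (367 to 500), the ratio being 0.534 (0.450 to 0.630). Gzmb was seen in 116 of 145 and 34 of 52 cells, at 2637 and 1715 CPM (0.650, 0.597 to 0.707). Gzmk was seen in 100 of 145 and 21 of 52 cells, at 363 and 142 CPM (0.390, 0.289 to 0.517). Cst7 (cystatin F, an inhibitor of the proteases that mature granzymes) was at 529 and 276 CPM. Cells with both Gzmb and Gzmk were 88 of 145 in control and 15 of 52 in IL-27.

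Of 20 granule genes 5 were higher and 6 lower, against 11.0% and 15.3% of all genes. The 5 higher were Gzma, Gzmc, Gzmd, Gzme and Gzmg. In the IL-27 matrix 1 cell held 679 of 757 Gzmc UMIs. For Gzmd the highest cell held 306 of 359 UMIs, for Gzmg all 153 and for Gzma 220 of 274. Without the cell with the most UMIs in each matrix, the log2 ratio of Gzma was -0.88. Granzymes D and E were identical at 93.5% of coding bases, so reads can be split between them. In control the highest cell held 86 of 387 Gzma UMIs and 531 of 942 Gzmf UMIs.

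Effector cytokines rested on single cells in the same way. Ifng was at 58.0 CPM in control and 178 in IL-27, but 1 IL-27 cell held 51 of 69 UMIs, and that cell's barcode is the one found in both matrices. It held 406 of 443 Ccl4 UMIs and 150 of 186 Ccl3 UMIs as well. Without barcodes found in both matrices the log2 ratios were -0.30 for Ifng and -0.26 for Ccl3. On the control side 83 of 101 Tnf UMIs were in 1 cell. Tgfb1, which encodes the suppressive cytokine TGF-beta1, was spread over the cells, in 89.0% and 96.2% of them, and was at 1102 and 1712 CPM (1.55, 1.41 to 1.71). Ccl5 was at 4814 and 4658 CPM.

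Of 14 cytokine receptor genes 5 were higher (Il2ra, Il7r, Il12rb2, Il18r1 and Il18rap) and 1 lower, against 11.0% and 15.3% of all genes. Others such as Il2rb, Il21r and Il4ra had ratios of 1.02, 0.964 and 0.790. Both chains of the IL-18 receptor were among the 5 higher, with Il18r1 at 32.4 and 116 CPM (3.58, 2.27 to 5.66) and Il18rap at 60.5 and 131 (2.17, 1.48 to 3.15). Il12rb2, the signalling chain of the IL-12 receptor, was at 59.7 and 118 (1.98, 1.34 to 2.92), and Il2ra, the high-affinity IL-2 receptor chain, at 47.7 and 134 (2.80, 1.89 to 4.17). Il10ra was at 132 and 69.5 (0.526, 0.336 to 0.795). The list median of 0.01 was close to that of all genes. Of the costimulatory receptors, Icos was at 275 and 556 CPM (2.02, 1.69 to 2.41), Tnfrsf4 (OX40) at 345 and 227 (though its log2 ratio was 0.29 with each cell thinned to 1000 UMIs) and Tnfrsf9 (4-1BB) at 1528 and 1040.

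**Figure D4:**
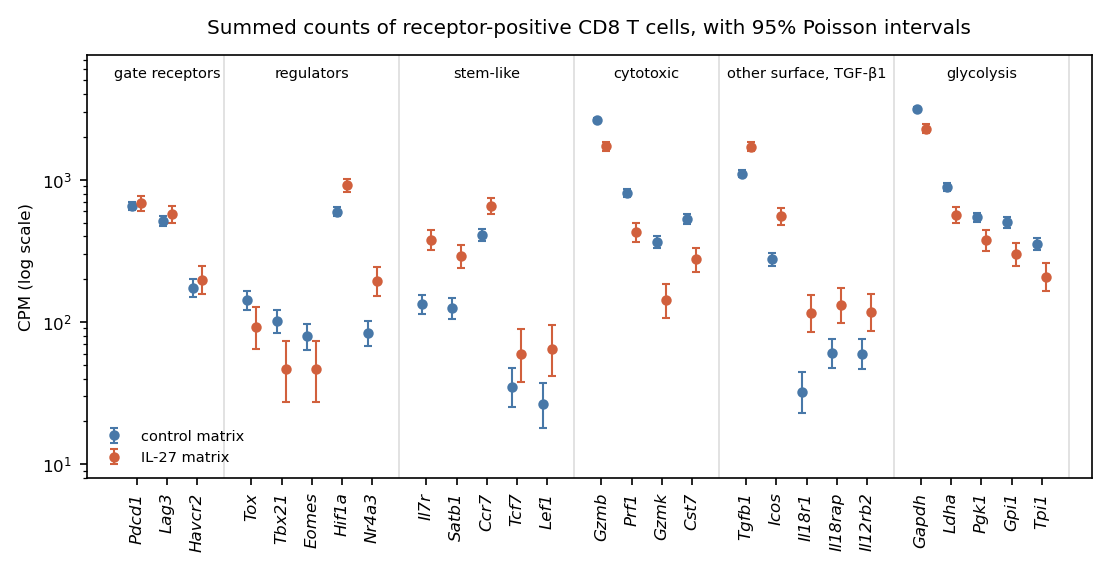
CPM (log axis) of named genes in the summed receptor-positive CD8 T cells of the control (blue) and IL-27 (orange) matrix, with 95% Poisson intervals. Pdcd1 stands at 655 and 682, Il7r at 133 and 379, Prf1 at 806 and 430 and Gapdh at 3165 and 2292.

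Genes of the IL-27 pathway itself did not move together. Of 17 genes 2 were higher and 5 lower, against 11.0% and 15.3% of all genes, and the median was -0.22. The receptor chain Il27ra was at 91.2 and 59.2 CPM, with an interval of the ratio (0.395 to 1.03) that held 1. The transducer Stat3 was at 1130 and 1403 CPM (1.24, 1.12 to 1.37). The feedback inhibitor Socs3 was at 103 and 30.9 (0.300, 0.151 to 0.543), with 36 of its 121 control UMIs in 1 cell, and Socs1 at 81.0 and 38.6 (0.477, 0.257 to 0.827). Bcl3 was at 69.1 and 30.9, and the kinase gene Jak2 at 115 and 191 (1.66, 1.23 to 2.21).

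Interferon-stimulated genes had a median of -0.37. Of 18 genes 0 were higher and 3 lower (Isg15, Irf1 and Irf7), against 11.0% and 15.3% of all genes. Isg15 was at 86.1 and 46.4 CPM and Irf1 at 135 and 74.7. Among Trbv4 cells alone the list median was -0.03, and Isg15 was not lower there or with cycling cells kept. In the other populations the list median was -1.24 in checkpoint-low CD8 T cells (4 lower of 5 genes), -0.14 in cycling CD8 T cells, -1.32 in other CD4 T cells, -0.71 in regulatory T cells, -0.84 in NK cells and -0.64 in neutrophils. In the checkpoint-low cells 276 of all 973 genes compared were lower, and the median of all genes was -0.17.

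MHC class I presentation genes, the other known target of interferon and IL-27 signals, had a median of -0.30. Of 20 genes 0 were higher and 4 lower, against 11.0% and 15.3% of all genes. Psmb8, a subunit of the immunoproteasome, was at 755 and 458 CPM (0.607, 0.514 to 0.714) and Psmb10 at 171 and 106. Tap2, which carries peptides into the endoplasmic reticulum, was at 184 and 118, and H2-T22 at 297 and 193. After taking off the length class it was -0.15.

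Glycolysis and hypoxia genes had the lowest list median, at -0.69, with 11 of 18 lower and 0 higher against 15.3% and 11.0% of all genes. Taking off the length class gave -0.55. Enzymes among the 11 were the following. Gpi1 was at 501 and 299 CPM (0.596, 0.484 to 0.728), Tpi1 at 352 and 209 (0.592, 0.461 to 0.753), Pgam1 at 249 and 126 (0.507, 0.367 to 0.688), Eno1 at 1092 and 670 (0.613, 0.534 to 0.701) and Ldha at 890 and 567 (0.636, 0.548 to 0.737). Gapdh and Pgk1 were under 1.5-fold, with ratios of 0.724 (0.672 to 0.779) and 0.692 (0.574 to 0.830). Hk1, Pfkp and Pkm, at the first, a middle and the last step, were also under it, with ratios of 0.775, 0.795 and 0.709, and Hk2 had too few UMIs to be compared. The glucose transporter Slc2a1 was at 52.9 and 20.6 CPM.

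The lower genes of this list also held Bnip3, Ddit4, P4ha1, Vegfa and Pfkl. Bnip3, a mitophagy receptor, was seen in 35 of 145 control and 1 of 52 IL-27 cells, with 63 UMIs against 1, a ratio of 0.0479 (0.00120 to 0.277). Ddit4, an inhibitor of mTOR, was at 148 and 51.5 CPM (0.347, 0.207 to 0.553), and the prolyl hydroxylase gene P4ha1 had 41 and 3 UMIs (0.221, 0.0438 to 0.693). Slc2a3, another glucose transporter, stood on the other side at 32.4 and 43.8 CPM with an interval that held 1, and Pdk1 and Egln3 had too few UMIs to be compared. The 24 oxidative phosphorylation genes, by contrast, had 0 higher and 0 lower and a median of -0.06.

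The glycolysis list also had a negative median in most other cells compared. It was -0.54 in checkpoint-low CD8 T cells (4 lower of 8 genes), where 276 of all 973 genes were lower and their median was -0.17. It was -0.49 in NK cells, -0.37 in regulatory T cells, -0.32 in neutrophils and -0.22 in cycling CD8 T cells, while it was 0.13 in CD4 T cells without Foxp3, and the median of all genes lay between -0.04 and 0.03 in these 5 populations. Whether the receptor-positive CD8 T cells differ from these was not tested.

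Immediate early and stress genes, which tissue digestion can induce, had a median of -0.51. Of 24 genes 0 were higher and 11 lower, against 11.0% and 15.3% of all genes. Dnajb1, a heat shock co-chaperone, was at 92.1 and 30.9 CPM (0.336, 0.168 to 0.611) and Junb at 674 and 448. Ier3 was at 146 and 36.1 CPM and Hspa1b was lower through 1 control cell with 133 of 144 UMIs. The list ranged from -0.59 to -0.19 over 14 ways of processing. With 1 matrix per group, handling and treatment cannot be told apart.

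Residence and migration genes had a median of 0.24, but it was 0.07 after taking off the length class and -0.27 among Trbv4 cells alone. Of 21 genes 4 were higher and 2 lower, against 11.0% and 15.3% of all genes. Cxcr4, the receptor for CXCL12, was at 95.5 and 185 CPM (1.94, 1.42 to 2.63) and the adhesion molecule Cd44 at 147 and 229. Ccr8 and Rgs2 were also higher and Cxcr3 and Klf2 lower, but Rgs2 and Klf2 changed sides when each cell was thinned. Of 26 T cell receptor signalling genes 2 were higher and 2 lower. Cd5 and Cd6, which restrain receptor signals, were at 81.0 and 160 CPM (1.97, 1.41 to 2.74) and at 121 and 237 (1.96, 1.49 to 2.56). On the lower side stood Cd3g, a gate gene, and the NF-kappaB inhibitor Nfkbia, at 536 and 216 (0.403, 0.317 to 0.507).

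Survival genes were split, with Bcl2 at 89.5 and 38.6 CPM (0.431, 0.233 to 0.745) and Bax at 182 and 113, but the related survival genes Bcl2l1 at 78.4 and 149 (1.90, 1.35 to 2.67) and Bcl2a1d at 401 and 613. Proliferation genes left after the gate had 3 higher (Mcm3, Mcm5 and Stmn1) and 1 lower (Tuba1b) of 13, and the 3 turned lower when cycling cells were kept. Housekeeping genes had 0 higher and 3 lower of 21 and a median of -0.17, where 11.0% of all genes were higher and 15.3% lower.

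Single genes with the largest ratios, among genes found in at least 10% of the cells and with no cell holding over 50% of the UMIs, led with Tnfsf11 and Sema6d. Tnfsf11, which encodes the cytokine RANKL, was at 13.6 and 72.1 CPM from 16 and 28 UMIs (5.29, 2.76 to 10.5), with 14 of the 28 in 1 cell. Sema6d, a semaphorin, was seen in 8.97% and 38.5% of the cells, at 18.8 and 97.9 CPM (5.22, 3.01 to 9.26). Smim27, Pou2f2 (the B and T cell factor Oct-2), Fbxo32 (a ubiquitin ligase subunit), Slc37a2, Il18r1, Synj2, Akirin2 and Slc35d1 followed, with ratios from 3.37 to 4.88. Each of these 10 had 45 UMIs or fewer per matrix.

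At the other end Bnip3 was followed by Atpsckmt, Penk, Nab2, Kansl2, Dot1l, Elmo2, Lsm10, Plaur and Il1b. Nab2, a corepressor of EGR factors, had 44 and 2 UMIs (0.137, 0.0161 to 0.526), and Dot1l, a histone methyltransferase, had 33 and 2. Plaur (the urokinase receptor) and Il1b are also neutrophil and monocyte transcripts, and 70 of 225 control Il1b UMIs were in 1 cell. Il1b was seen in 7.64% of control and 5.77% of IL-27 receptor-positive cells after thinning to 1000 UMIs, and in 95.6% and 94.0% of the neutrophils. The 12 macrophage and monocyte markers stood at 506 CPM in control and 337 in IL-27. Of their UMIs, 303 of 594 and 107 of 131 were of Ly6c2, which memory T cells share. The 8 neutrophil markers stood at 190 and 191 CPM, with 151 of 223 and 63 of 74 UMIs from Il1r2. The part of myeloid transcripts in the lower Il1b and Plaur was not tested.

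The beta segments divided the control cells themselves. Tcf7 was seen in 13 of the 26 control cells with a segment other than Trbv16, Trbv19 or Trbv4, against 2 of 60 Trbv16 cells, 2 of 35 Trbv19 cells and 0 of 22 Trbv4 cells, at 133, 13.1, 27.0 and 0 CPM. Those 26 cells also had the most Gzma, at 1039 CPM and at 774 without their highest cell, and the least Id2, at 345 CPM against 988, 1336 and 1284. Of their 241 Xcl1 UMIs 199 were in 1 cell. Csf1 was at 34.5 CPM in them and at 259, 363 and 393 in the Trbv16, Trbv19 and Trbv4 cells. Ly6c2, a memory marker that monocytes share, was at 1030 CPM against 98.9, 69.5 and 111.

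The granule genes did not share 1 order over the 3 frequent segments. Prf1 was at 1263 CPM in Trbv19, 846 in Trbv16 and 575 in Trbv4 cells, and at 956, 750 and 496 without the highest cell of each. Gzmb was at 4774, 1966 and 2405 CPM, and at 2646, 1700 and 1788 without those cells, since 1 Trbv19 cell held 605 of 1236 UMIs. For Gzmf 1 Trbv19 cell held 531 of 577 UMIs, and without it the level was 193 CPM, against 236 in Trbv16 cells without theirs. Gzmk was lowest in Trbv19, at 251 CPM against 329 in Trbv16 and 481 in Trbv4 cells. Pdcd1, a gate gene, lay between 606 CPM in Trbv19 and 749 in the cells with other segments, and Havcr2 from 83.7 CPM in the latter to 243 in Trbv19.

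**Figure D5:**
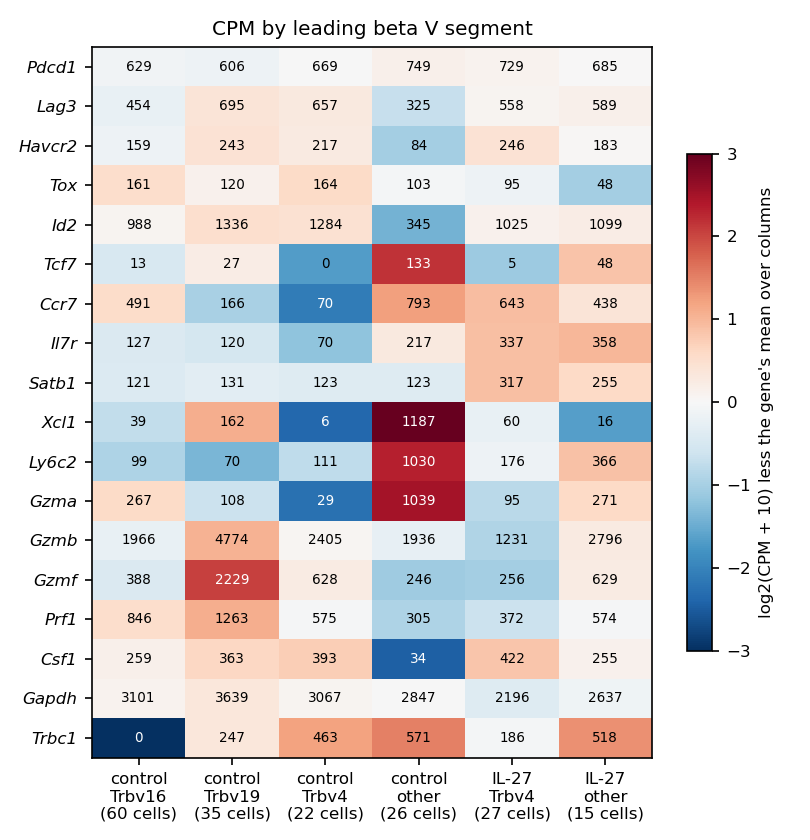
CPM (numbers) of receptor-positive CD8 T cells by leading beta V segment and matrix, where other stands for any segment but Trbv16, Trbv19 and Trbv4, and colour is log2(CPM + 10) less the gene's mean over the columns. Tcf7 stands at 133 CPM in the control cells with other segments and at 13.1 in the Trbv16 cells, and Trbc1 at 0 in the Trbv16 cells.

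Since the matrices differ in segments, genes were also compared within Trbv4, the only segment with at least 10 cells in both matrices (22 and 27). The Trbv4 cells of the matrices differ in alpha segment, as given above. Il7r was at 70.4 CPM in control and 337 in IL-27 (4.78, 2.57 to 9.72) and Satb1 at 123 and 317 (2.57, 1.55 to 4.44). Ccr7 was at 70.4 and 643 (9.14, 5.06 to 18.2), but its control level rests on 12 UMIs, of which 11 were in 1 cell. Gzmk was at 481 and 146 (0.303, 0.191 to 0.468), and Gzmb at 2405 and 1231. Gpi1 was at 545 and 241, and Gapdh at 3067 and 2196. Other stem-like and naive genes did not all follow. Klf2 was at 152 and 15.1 CPM (0.0989, 0.0192 to 0.323), and Foxp1 at 70.4 and 30.2 with an interval that held 1. Tcf7 had 0 and 1 UMIs and Lef1 4 and 10. Over this segment the stem-like list had a median of 1.10 and the glycolysis list -0.89, so both medians had the sign they had over all cells. The cells with other segments (26 in control and 15 in IL-27) differed from this for several genes. In them Gzmb was at 1936 CPM in control and 2796 in IL-27, Prf1 at 305 and 574, Ccr7 at 793 and 438 and Tcf7 at 133 and 47.8. Il7r was at 217 and 358 and Gpi1 at 552 and 430.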

How the data were processed

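Single-cell 5′ libraries of bead-enriched cells gave 1 matrix per group. The deposited values are UMI counts per gene and barcode, made with Cell Ranger 4.0.0 per the file headers, and the submitters' processing notes also name Seurat 3.2.0 and mm10. Kept barcodes had a minimum of 500 UMIs and 200 genes, and mitochondrial UMIs below 10%. Doublets were not removed, and leaving out the 8% of cells with the highest Scrublet scores is an alternative. Counts were summed over the cells of each matrix and divided by their total (CPM), with exact Poisson intervals for levels, Clopper-Pearson intervals for shares and conditional binomial intervals for ratios. Genes with at least 30 UMIs were compared and counted from 1.5-fold. A count of 0 was read as at most 3 counts. With 1 matrix per group no test was run.

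Named genes were the gate genes, the 10 highest and 10 lowest ratios of each comparison (UMIs in at least 10% of cells, no cell with over 50% of the UMIs, markers of other classes left out) and genes of each list at its ends or needed for their role. The members and lists were chosen with earlier results of these data known. Shares across depths were read after thinning to 1000 UMIs (seed 1), and the scripts were tested on simulated data. Python 3.11.15, NumPy 2.4.6, SciPy 1.17.1, pandas 2.3.3, scanpy 1.11.5 and matplotlib 3.10.9 were used. T cell receptor libraries were not used here. Some listed genes are not reported here.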

Additional observations from a re-analysis of the deposited data

How the results depend on the processing

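With 1 matrix per group the direction of every difference rests on 2 libraries, and depth limits genes of few UMIs most. Reading the gates on thinned cells gave ratios of 0.553 for the share of kept cells and 1.27 for the share of CD8 T cells. Genes higher and lower in IL-27 numbered 126 and 182 with each cell thinned, 179 and 219 among genes with at least 100 UMIs, and 160 and 328 at 2-fold. Against checkpoint-low cells they numbered 107 and 64, 259 and 112, and 143 and 113 in the same order, with 291 higher at CD8 and CD3 gates of 2 UMIs and 217 lower without the most frequent segment of each matrix. Thinning left 969 genes to compare, of which 13.0% were higher and 18.8% lower. The 2-fold counts use the same cells and 5926 genes under a stricter threshold, and the other settings use fewer genes or cells.

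Over 129 genes and their alternatives, 1428 log2 ratios stayed within the counting interval, 168 moved and 32 turned. Without the highest doublet scores they were -0.40 for Ifng, -0.035 for Ccl3, -0.79 for Ccl4 and 0.84 for Tnf. Without barcodes found in both matrices Ifng was at -0.30 and Ccl3 at -0.26. With cycling cells kept they were -0.35 for Mcm3, -0.40 for Mcm5, -0.36 for Stmn1, 0.021 for Xcl1, 0.0039 for Isg15, 0.091 for Spp1, 0.59 for Eomes, -0.40 for Gzma and 1.36 for Gzmf. With each cell thinned Rgs2 was at -0.59, Tnfrsf4 at 0.29 and Klf2 at 0.15. Without the most frequent segment they were -1.63 for Ifng, -1.57 for Ccl1, -1.22 for Ccl4, 1.75 for Tnf and 0.043 for Nfatc1. Without the highest cell Ifng was at -0.14, Gzma at -0.88 and Tnf at 0.42. Among Trbv4 cells alone they were 3.36 for Xcl1, 0.040 for Isg15, 0.78 for Serpinb9b, -1.24 for Gzme, -1.48 for Gzmd and -2.54 for Gzmc. The cause was not tested. The Trbv4 cells alone, the exclusion of cells with myeloid UMIs, the share without neutrophils and the length correction were chosen after seeing the data. Genes with under 10 UMIs under an alternative gave no value. No paired analysis was possible because each group is 1 matrix.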

Other observations

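Rora, a nuclear receptor of T cells and innate lymphoid cells, was seen in 80 of 145 control and 41 of 52 IL-27 receptor-positive cells, at 206 and 500 CPM (ratio 2.42, 1.99 to 2.94). Cdh1, which encodes E-cadherin, was seen in 25 of 145 control and 2 of 52 IL-27 cells, at 27.3 and 5.15 CPM. Both were chosen after their values were seen. Penk, the precursor of enkephalin, was at 277 CPM in control and 33.5 in IL-27, but in 15 of 145 and 7 of 52 cells, and 1 control cell held 137 of its 325 UMIs.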
